A study of Homo sapiens with 8 samples.

Results

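The genes described here are 34 genes of sterol and fatty acid synthesis, out of 19974 protein-coding genes, in the H3K4me1 landscape of MDA-MB-231, a cell line from triple-negative breast cancer. Monomethylation of lysine 4 of histone H3 (H3K4me1) marks enhancers and the flanks of active gene starts. ChIP-seq for this mark was done in control cells and in cells labelled ARID1A knockout. ARID1A belongs to SWI/SNF, a complex that remodels chromatin. Each genotype had 2 immunoprecipitated and 2 input samples, with no treatment named. No source used here says how the knockout was made or whether it was 1 clone. The genes were chosen by name, on a list drawn up when the covered bases of part of them in these same data were known. Their covered bases are therefore a description, and no test was made on them. The 34 genes comprised 6 of the mevalonate steps, 9 of the sterol steps, 13 of the fatty acid steps and 6 of regulation by the sterol regulatory element-binding proteins (SREBPs).

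Cholesterol is built from acetyl-CoA through the mevalonate pathway to squalene, which is closed to lanosterol and trimmed to cholesterol. Fatty acids are built from the same acetyl-CoA by carboxylation, chain assembly, elongation and desaturation. Genes of both routes are targets of the SREBP transcription factors, which are held in the endoplasmic reticulum by SCAP and INSIG proteins when sterols are plentiful and released when they run low. Breast cancer cells are known to make much of their own lipid.

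The data were 1 list of H3K4me1 peaks per genotype, called by the authors on immunoprecipitate over input, in hg38 coordinates. The lists held 82994 control and 73600 knockout peaks on chromosomes 1 to 22 and X, covering 183.2 and 176.3 Mb, with median widths of 1386 and 1587 bases. Read totals were not used here, and the depth is unknown. A single list per genotype leaves no spread between replicates, so every difference below is between 2 lists and was not tested. At ARID1A the lists covered 44673 control and 39191 knockout bases, which does not check the knockout label. Peaks of both lists lay at 7 of 8 mesenchymal marker genes (ZEB1 with 47349 control bases and CD44 with 44927 among them) and at 6 of 8 luminal ones (ESR1 with 27383, KRT8 with 26176). TWIST1 and AGR2 had no peak in either list, and H3K4me1 peaks thus do not check the cell type.

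Coverage was counted as the bases under peaks in the RefSeq gene record plus 5000 bases on either side, and a difference of at least 1000 bases was called, higher for more bases in the knockout list and lower for fewer. Records of other genes reach into many of these windows, and only some are named below. With the lists as deposited, cholesterol genes mostly had wider H3K4me1 coverage in the knockout list, and fatty acid genes were divided. Of the 34 genes 19 were higher in the knockout list and 9 were lower, where 20.2% of all protein-coding genes were higher and 30.0% lower. The 6 others differed by less than 1000 bases. The median difference, knockout minus control, was 1876.5 bases over the 34 genes and 0 over all genes. Of the 15 mevalonate and sterol genes, 12 were higher (4 of 6 and 8 of 9) and TM7SF2 alone was lower. Among the 13 fatty acid genes 4 were higher and 6 lower, and among the 6 regulators 3 were higher and 2 lower. Among peaks of a fold enrichment of at least 4 the excess was not seen, with 6 genes higher (14.5% of all genes) and 10 lower (19.4%). With only peaks of −log10 q 5 or more, 24 genes were higher (26.7% of all genes) and 4 lower (17.7%). At that cutoff all genes shifted the same way, from 20.2% higher and 30.0% lower. Of the 13 fatty acid genes 6 were then higher and 3 lower. The mean coverage of the 2 lists ranged from 2714 to 41368.5 bases over the 34 genes, and among the 11670 genes within that range 26.6% were higher and 40.1% lower. The shares of the 13 fatty acid genes, 30.8% higher and 46.2% lower, were near these.

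**Figure D1:**
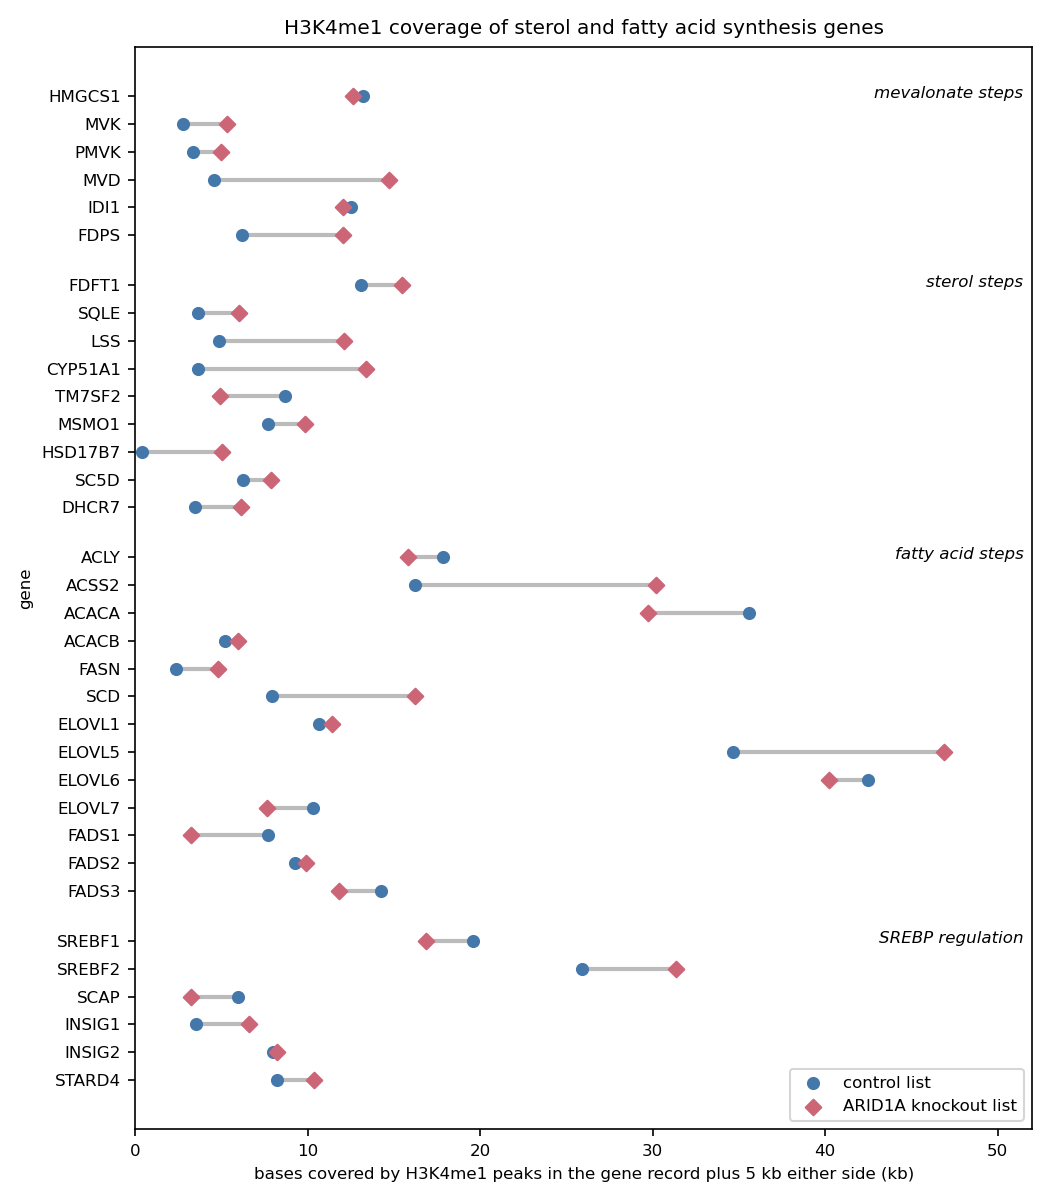
Bases under H3K4me1 peaks (kb) for each of the 34 genes, in the gene record plus 5 kb either side. Circles are the control list and diamonds the ARID1A knockout list, with no error bars because each genotype has 1 list. Diamonds lie to the right of circles by at least 1 kb at 19 genes and to the left by at least 1 kb at 9.

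A local input background was implied by the authors' pileup and fold of the peaks within 1 Mb of each window, and its knockout to control ratio was divided by the genome-wide ratio of 1.25. This value was above 1.2 at 6 of the 34 genes, PMVK, FDPS, LSS, CYP51A1, HSD17B7 and ELOVL5, and all 6 were among the 19 higher ones. It was below 0.8 at none. Over all genes it was above 1.2 at 2292 of 19831. Without genes outside 0.8 to 1.2, a setting chosen after the values were seen, 13 of 28 pathway genes were higher (19.6% of all such genes) and 9 lower (31.1%). By step, 2 of 4 mevalonate genes and 5 of 6 sterol genes were then higher, with 0 and 1 lower. Of 12 fatty acid genes 3 were higher and 6 lower. The part of the input background in the differences at the 6 genes with a ratio above 1.2 was not tested.

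Among mevalonate genes the differences were concentrated at MVD, FDPS and MVK. MVD encodes mevalonate diphosphate decarboxylase, which makes isopentenyl diphosphate (chromosome 16, 88651940 to 88663091). It had 4 control peaks covering 4565 bases and 3 knockout peaks covering 14704, an excess of 10139 bases and the largest ratio of the mevalonate group, 3.22. In the control list the stretch downstream of the start held 3 separate peaks of 1076, 868 and 2263 bases, of which the narrow one of 868 was the strongest (fold 6.10, −log10 q 12.7). In the knockout list a single peak of 12964 bases, with a fold of 4.12 and a −log10 q of 8.49, ran from 931 to 13894 bases downstream of the start. The upstream side carried 1 control peak of 358 bases and knockout peaks of 1272 and 468, and no peak of either list covered the start itself. The background ratio there was 0.967, and the window takes in part of the neighbouring CYBA record.

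The 250 bases before the MVD start (chr16:88663092-88663341, minus strand) are shown because they lie in the gap between the upstream and downstream peaks, and neither list covered the start at 21 of the 31 genes with a start in RefSeq. Capitals mark matches to CCAAT or GGGCGG on either strand, so that ATTGG and CCGCCC are the opposite-strand forms, and to TCACNCCAC, a motif resembling the sterol regulatory element.
MVD: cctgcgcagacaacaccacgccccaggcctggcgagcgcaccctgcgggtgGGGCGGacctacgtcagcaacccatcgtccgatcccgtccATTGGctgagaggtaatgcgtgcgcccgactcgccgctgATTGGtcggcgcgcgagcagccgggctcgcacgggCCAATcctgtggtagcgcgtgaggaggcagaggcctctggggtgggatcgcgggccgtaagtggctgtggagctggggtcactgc
This stretch held 3 matches to CCAAT, the core of the NF-Y motif, and 1 to GGGCGG, the core of the Sp1 motif. NF-Y and Sp1 are known partners of SREBPs.

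FDPS, farnesyl diphosphate synthase, makes the branch-point intermediate for sterols and prenylation (chromosome 1, 155308866 to 155320665). Its 4 control peaks covered 6183 bases and its 3 knockout peaks 12053. A control peak of 2846 bases ended 457 bases before the start and another of 2178 began 849 bases after it, whereas 1 knockout peak of 11424 bases ran across both and the start. MVK, mevalonate kinase (chromosome 12, 109573272 to 109598125), showed the same arrangement on a smaller scale. Control peaks of 1004 and 946 bases flanked the start, 1 knockout peak of 4602 bases spanned it, and the windows held 2749 and 5307 covered bases. The MVK window also takes in part of MMAB, a cobalamin pathway gene, and the FDPS window part of PKLR and RUSC1, so the peaks cannot be given to 1 gene. PMVK, phosphomevalonate kinase, had 3321 control and 4960 knockout bases. There too the start was covered in the knockout list alone, by a peak of 3344 bases. At FDPS, MVK and PMVK the control gap over the start was shorter than 1445 bases, the smallest gap in the knockout list. No gap that short occurs in the knockout list, and the part of joining in these covered starts was not tested. The background ratio was 1.37 at FDPS and 1.39 at PMVK, which lie near each other on chromosome 1, and 1.04 at MVK.

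HMGCS1 and IDI1 differed by less than 1000 bases with the lists as deposited, but not under every setting. HMGCS1 encodes the cytosolic HMG-CoA synthase that opens the pathway (chromosome 5, 43287470 to 43313412), and it had 13172 control and 12607 knockout bases, of which 8806 were covered in both. The placing differed. A control peak of 8646 bases covered the start with a −log10 q of 5.64, while the knockout list had a gap over the start between a peak of 2071 bases upstream and one of 10536 bases downstream. That upstream peak had a fold of 6.03 and a −log10 q of 23.1, higher than 99.8% of the knockout list. HMGCS1 was the only one of these genes whose start was covered in the control list and not in the knockout list. IDI1, isopentenyl diphosphate isomerase, had 4 peaks in each list with 12526 and 12045 bases. Among peaks of −log10 q 5 or more both had more knockout bases, by 3961 at HMGCS1 and 5460 at IDI1, and all 6 mevalonate genes were then higher (26.7% of all genes). At −log10 q 3 or more the differences were 3961 and 2093. With the same merging distance HMGCS1 differed by -3242, and with 50000 bases either side IDI1 differed by -2192. Of the 6 mevalonate genes, 2 were higher at a fold of at least 4 (14.5% of all genes) and 1 lower (19.4%).

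Of the 9 sterol genes, from squalene synthesis onward, 8 were higher with the lists as deposited (20.2% of all genes). With peaks of −log10 q 5 or more 7 were higher (26.7%). At a fold of at least 4, 2 of the 9 were higher (14.5%) and 1 lower (19.4%). CYP51A1, the lanosterol demethylase (chromosome 7, 92112153 to 92134803), had 3650 control and 13358 knockout bases, a ratio of 3.66. Its downstream control peak of 2167 bases ended 3604 bases after the start, and the knockout peak in that place, 9757 bases wide, ended 11078 bases after it. The background ratio at CYP51A1 was 1.44, and its window takes in part of AKAP9. LSS, lanosterol synthase, which closes the ring system (chromosome 21, 46188446 to 46228774), had 4872 control and 12100 knockout bases in 4 peaks each. Most of its excess lay at the far end of the gene, beyond 36612 bases from the start, where control peaks of 454 and 1411 bases faced a knockout peak of 6737. That end of the window overlaps SPATC1L. Next to the LSS start the knockout peak of 2498 bases had a fold of 5.59 and a −log10 q of 14.6, and the control peak of 1255 bases had 3.34 and 3.26, each against its own input. The LSS background ratio was 1.21.

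The 250 bases before the CYP51A1 start (chr7:92134478-92134727, minus strand) and the LSS start (chr21:46228775-46229024, minus strand), neither covered by a peak of either list, are set together because their motif content differs although both genes had wider coverage in the knockout list.
CYP51A1: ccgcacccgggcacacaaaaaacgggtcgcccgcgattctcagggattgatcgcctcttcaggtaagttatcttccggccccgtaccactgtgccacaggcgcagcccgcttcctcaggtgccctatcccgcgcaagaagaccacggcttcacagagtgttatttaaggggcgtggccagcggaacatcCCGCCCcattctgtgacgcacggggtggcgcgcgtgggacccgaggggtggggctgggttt
LSS: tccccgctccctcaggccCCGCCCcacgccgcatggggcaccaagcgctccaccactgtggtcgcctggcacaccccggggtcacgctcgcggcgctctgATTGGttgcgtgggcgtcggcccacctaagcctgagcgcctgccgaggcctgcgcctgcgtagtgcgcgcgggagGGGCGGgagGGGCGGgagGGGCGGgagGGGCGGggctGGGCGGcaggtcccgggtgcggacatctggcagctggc
With capitals as for MVD, CYP51A1 held a single GGGCGG match and no CCAAT, whereas LSS held 6 GGGCGG matches, 5 of them in a row from 75 to 33 bases before the start, and 1 CCAAT.

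HSD17B7, a sterol ketoreductase gene (chromosome 1, 162790702 to 162812823), had 1 control peak of 399 bases just upstream of its start. The 1 knockout peak there was 5029 bases wide and covered the start. The excess was 4630 bases at a background ratio of 1.31, and the DDR2 record reaches into the window. SQLE, squalene epoxidase, had 3618 control and 6009 knockout bases, and FDFT1, squalene synthase, had 13085 and 15443. In both, 1 long knockout peak (5366 and 14019 bases) stood where the widest control peak was 3179 and 9640 bases. The WASHC5 record reaches into the SQLE window and CTSB into that of FDFT1. DHCR7, which carries out the last reduction to cholesterol, had 3445 control and 6125 knockout bases, and its knockout peak on the downstream side had a −log10 q of 14.0. MSMO1, a sterol methyl oxidase gene, had 7709 and 9823 bases, and SC5D, a sterol desaturase gene, had 6253 and 7843. At SC5D the control bases were all covered in the knockout list as well. TM7SF2, a sterol reductase gene (chromosome 11, 65111872 to 65116230), was the exception. Its 2 control peaks covered 8662 bases and its 3 knockout peaks 4925, and 3742 bases were covered in the control list alone against 5 in the knockout list alone. VPS51, ZNHIT2 and FAU records also reach into that window.

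Around gene starts the 34 genes could be compared with the rest of the genome by distance. A start was taken from RefSeq for 31 of them, leaving out FDFT1, SQLE and FASN, and for 15813 genes in all. Both lists had the usual gap over the start with H3K4me1 on either side. A peak lay within 2000 bases of the start at 30 of the 31 genes in each list, against 67.0% (control) and 65.7% (knockout) of all genes, with ACACB as the exception. Coverage 2 to 10 kb downstream of the start summed to 101247 control and 135637 knockout bases over the 31 genes, a ratio of 1.34. It was larger in the knockout list at 20 of the 31 genes and smaller at 9. Over all genes the same zone had a ratio of 0.822, with more at 3326 and less at 6384 of 15813. The ratio was 2.32 for the 6 mevalonate genes, with more knockout bases at 6 of 6, and 1.57 for the 7 sterol genes, with more at 6 of 7. It was 1.11 for the 12 fatty acid genes (5 higher, 6 lower) and 1.08 for the 6 regulators (3 higher, 2 lower). Upstream, from 10 to 2 kb before the start, the ratio was 1.05, against 0.898 over all genes. Nearer the start the pathway genes did not exceed the genome in this ratio of summed bases. It was 1.09 against 1.11 in the 2 kb upstream and 1.17 against 1.22 in the 2 kb downstream. Counted by gene, coverage in the 2 kb upstream was larger in the knockout list at 15 of 31 and smaller at 12. Over all 15813 genes it was larger at 5570 and smaller at 3994. In the 2 kb downstream these counts were 21 and 7, against 6556 and 3017.

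**Figure D2:**
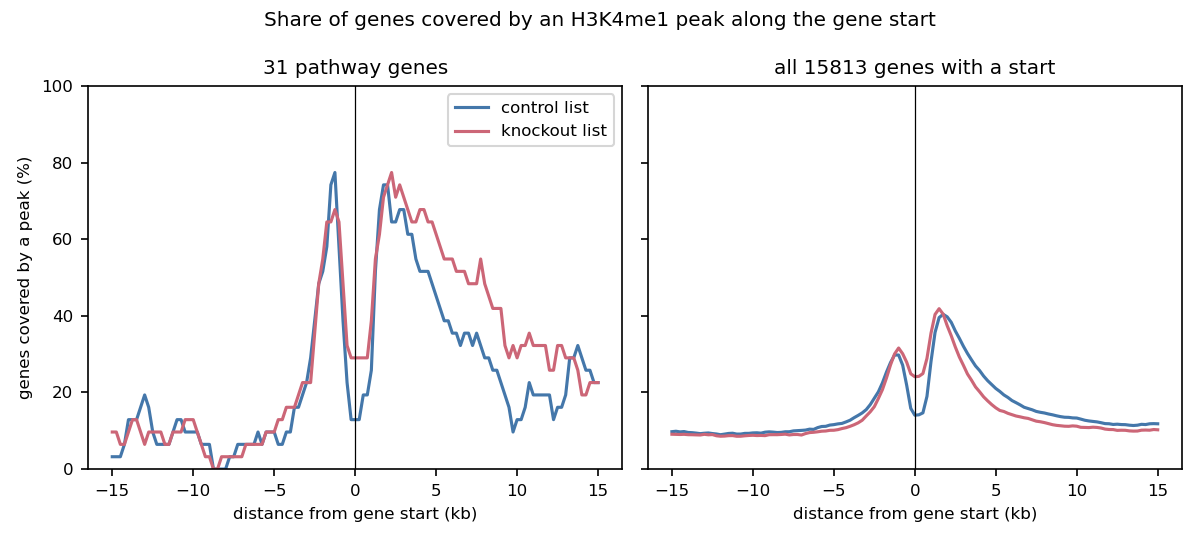
Percent of genes covered by an H3K4me1 peak at each distance from the gene start (kb, positive in the direction of transcription), for 31 pathway genes on the left and all 15813 genes with a start on the right. At 5 kb downstream 45.2% of pathway genes were covered in the control and 61.3% in the knockout list, against 21.0% and 16.0% of all genes.

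The first peak downstream of the start ended farther from it in the knockout list at many of these genes, at some of them by joining peaks that were separate in the control list. This measure was defined after the peaks had been seen, for genes with a peak of both lists beginning within 2000 bases downstream of the start or spanning it. Of 25 such pathway genes, 11 had the far edge at least 1000 bases farther in the knockout list and 2 at least 1000 bases nearer. Over all 8397 such genes the shares were 6.60% farther and 22.4% nearer. The 11 were HMGCS1, MVD, FDPS, LSS, CYP51A1, DHCR7, SCD, ELOVL5, SREBF2, INSIG1 and STARD4, and the 2 were FADS2 and SREBF1. At HMGCS1, MVD, ELOVL5, SREBF2 and STARD4 the knockout peak overlapped later control peaks. The last of these ended 10817, 15104, 26542, 28239 and 9512 bases from the start. In the same order the knockout peak ended at 11809, 13894, 27904, 28518 and 9247. The part of such joining in the farther edges was not tested. The median far edge of the 25 genes lay 3852 bases from the start in the control and 6489 in the knockout list. Over all such genes the medians were 2859 and 2433. Gene by gene the median difference was 864 bases for the 25 and -236 over all, each under 1000 bases in size. With the same merging distance in both lists 10 of 25 were farther (5.51% of all genes), and among genes of a background ratio of 0.8 to 1.2 the number was 7 of 20 (6.54%). Few of these genes could be measured among stronger peaks, 6 at a −log10 q of at least 5 (1 farther, 1 nearer, against 6.65% and 24.9%) and 2 at a fold of at least 4 (0 farther, 1 nearer, against 5.46% and 21.4%).

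**Figure D3:**
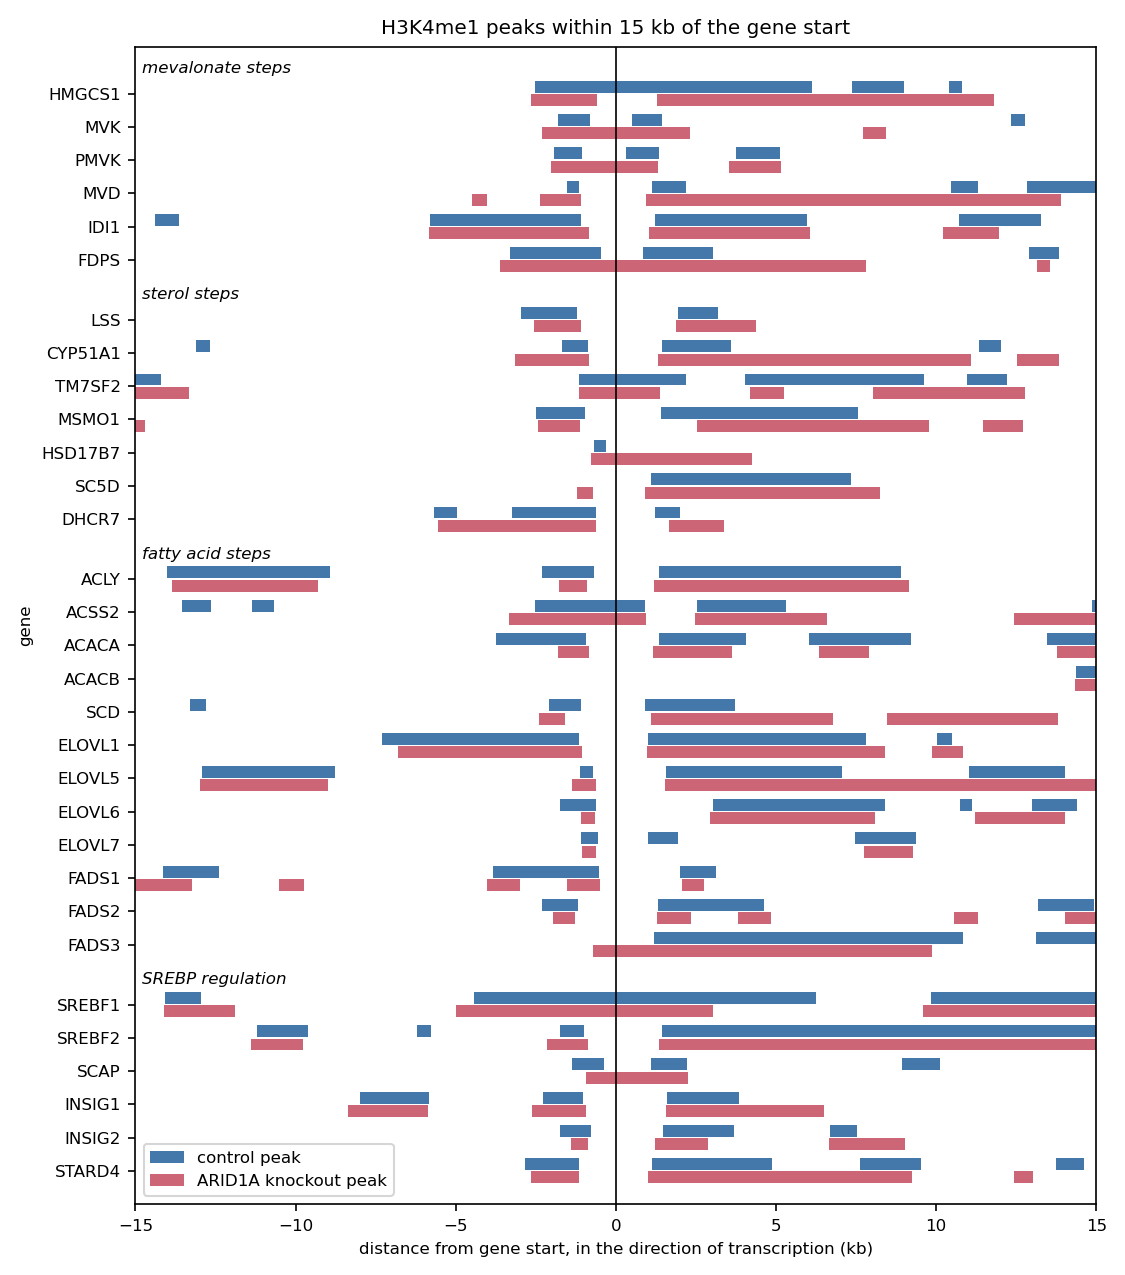
Peaks of the control list (upper bar of each gene) and the knockout list (lower bar) within 15 kb of the gene start, for the 31 genes with a start, in kb along the direction of transcription. At MVD, CYP51A1, FDPS and INSIG1 the first knockout peak downstream of the start ends beyond the first control peak. At MVD that knockout peak overlaps later control peaks, the last of which ends farther out. At most genes the start itself lies in a gap.

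The start itself was covered by a control peak at 4 of the 31 genes (14.1% of all genes) and by a knockout peak at 9 (24.1% of all genes). Shares of this size, 12.9% and 29.0%, were near those of the genome. Both lists covered the start of ACSS2, SREBF1 and TM7SF2. The knockout list alone covered it at MVK, PMVK, FDPS, HSD17B7, FADS3 and SCAP. At MVK, PMVK and FDPS the control gap over the start was shorter than 1445 bases, the smallest gap in the knockout list.

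The fatty acid genes were divided, and within some steps too, as at ACSS2 and ACLY and among the elongases. Their shares, 30.8% higher and 46.2% lower, were near the 26.6% and 40.1% of genes within the same range of mean coverage. ACSS2, which makes acetyl-CoA from acetate (chromosome 20, 34874989 to 34927959), had the largest excess of the 34 genes with the lists as deposited, 13969 bases, with 16216 control and 30185 knockout bases in 6 peaks each. Every one of its control peaks overlapped a knockout peak. GGT7 and GSS records also reach into the ACSS2 window. The control list held a sharp peak of 3112 bases from 31432 to 34543 bases downstream of the start, with a fold of 5.97 and a −log10 q of 25.9, above 99.9% of that list. In the knockout list most of that place was taken in by a peak of 9785 bases, ending 33937 bases downstream, with a fold of 3.04 and a −log10 q of 7.16. At a fold of at least 4 the ACSS2 difference turned to -689 bases, and with 50000 bases either side it was 2715, where that of MVD was 12466. Among peaks of −log10 q 5 or more it was 14042, below the 30541 of ELOVL5. ACLY, which cleaves citrate to acetyl-CoA, went the other way with 17864 control and 15813 knockout bases.

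ACACA, the acetyl-CoA carboxylase of the cytosol (chromosome 17, 37084992 to 37406836), had 14 control peaks covering 35602 bases and 12 knockout peaks covering 29751. Of these bases 24154 were covered in both lists, 11448 in the control list alone and 5597 in the knockout list alone. Its control peaks within the first 19049 bases downstream were wider, such as 5587 bases where the knockout list had 2 peaks of 850 and 2058. The strongest knockout peak of the gene, with a −log10 q of 15.6, was a narrow one of 957 bases before the start, where the control peak was 2810 bases wide with 6.76. ACACB, the mitochondrial form, had its nearest peak 14368 (control) and 14335 (knockout) bases from the start, and 5184 control and 5922 knockout bases in all. FASN, the fatty acid synthase gene (chromosome 17, 82078338 to 82098236), had 2 peaks in each list that covered 2349 and 4808 bases, all but 14 of the control bases also being covered in the knockout list. The CCDC57 record reaches into the FASN window.

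SCD, stearoyl-CoA desaturase, which makes monounsaturated fatty acids (chromosome 10, 100347233 to 100364826), had 7950 control and 16206 knockout bases. Most of the excess lay in the first downstream peak, 2814 bases wide in the control and 5692 in the knockout list, and in a knockout peak of 5361 bases with no control counterpart, a weak one with a −log10 q of 2.94. The background ratio at SCD was 1.01. Its promoter (chr10:100346983-100347232, plus strand) is shown as an example from this group, with capitals as above.
SCD: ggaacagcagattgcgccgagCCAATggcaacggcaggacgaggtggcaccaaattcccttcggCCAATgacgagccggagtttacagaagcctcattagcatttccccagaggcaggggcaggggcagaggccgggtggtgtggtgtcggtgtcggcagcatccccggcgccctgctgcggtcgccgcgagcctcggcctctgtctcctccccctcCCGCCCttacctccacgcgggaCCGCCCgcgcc
It held 2 CCAAT matches far from the start and 2 GGGCGG matches on the opposite strand close to it.

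The elongases differed among themselves. ELOVL5, which extends polyunsaturated chains (chromosome 6, 53267404 to 53348950), had 6 control peaks covering 34675 bases and 4 knockout peaks covering 46895. A single knockout peak of 26373 bases stood in place of 3 control peaks of 5492, 2999 and 9305, and all but 8 of the control bases were covered in the knockout list. ELOVL5 also had the highest background ratio of the 34 genes, 1.84. ELOVL6, which extends palmitate, had 42502 control and 40235 knockout bases, and ELOVL7 had 10328 and 7606. At ELOVL6, 4 of 12 control peaks and none of 8 knockout peaks lacked overlap in the other list, and at ELOVL7 it was 3 of 7 and none of 4. Both differences were opposite in sign at a −log10 q of at least 5, by 143 and 661 bases. ELOVL1, of very long chains, had 10672 and 11380 bases.

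The genes of the fatty acid desaturase (FADS) family are neighbours on chromosome 11 and share peaks, so their values are not independent. FADS1 (61799627 to 61817003) had 7702 control and 3211 knockout bases, with 4729 covered in the control list alone and 238 in the knockout list alone. The difference lay upstream of the start, where a control peak of 3314 bases faced knockout peaks of 1050 and 1035, and near FEN1, where peaks of 4492 and 1400 reached into the window. FADS2 (61816203 to 61867354) had 9249 and 9903 bases, a difference that ranged from -5170 to 2201 over the other settings, the same narrower peaks near its start being offset by a knockout peak of 5975 bases farther in where the control list had 1746 and 1992. FADS3 (61873526 to 61892224) had 14218 and 11783. Its main peak was of like strength in each list, with a −log10 q of 15.5 and 15.8 and widths of 9644 and 10591 bases, and it reached over the start in the knockout list alone.

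**Figure D4:**
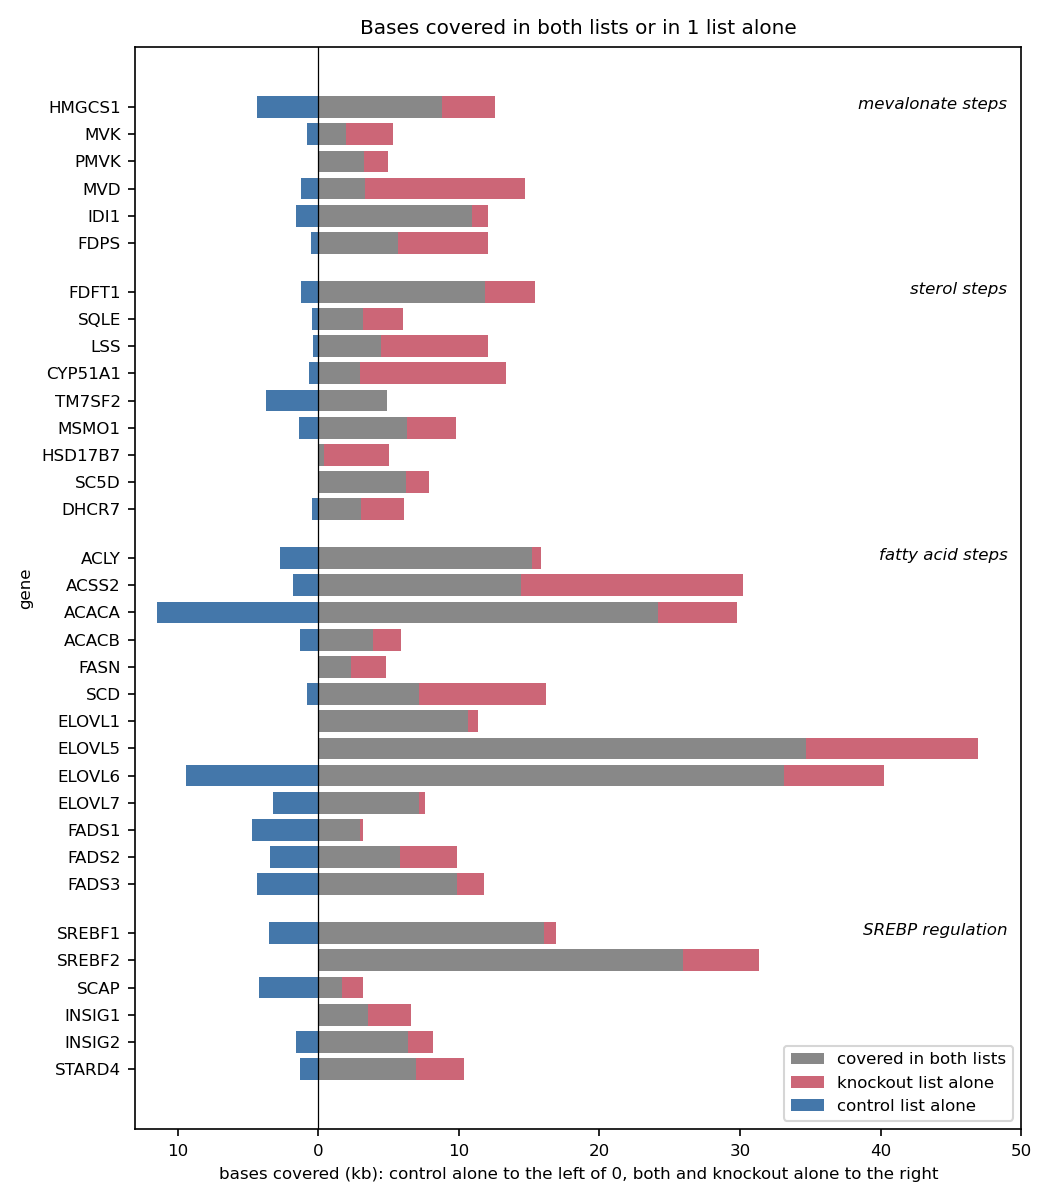
Bases (kb) covered in both lists (grey), in the knockout list alone (red) and in the control list alone (blue, drawn to the left of 0) for each gene. Bases covered in the knockout list alone outnumber those in the control list alone at 23 of 34 genes. ACACA, ELOVL6 and FADS1 are among the other 11. This count restates the sign of the difference in covered bases with no threshold, and is not a separate result. The 23 are the 19 genes called higher and ACACB, ELOVL1, FADS2 and INSIG2. The share of genes with more bases in the knockout list was not counted over all genes.

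Of the regulators, SREBF1 and SREBF2 encode the transcription factors themselves. SREBF1, whose products mainly drive fatty acid genes (chromosome 17, 17811334 to 17836986), had 2 strong wide peaks in each list, covering 19575 control and 16882 knockout bases. Its inner peak was nearly identical, 8878 and 8879 bases, and its peak over the start was 10697 bases wide in the control and 8003 in the knockout list. SREBF1, ACACA and MVD were the 3 genes that differed by at least 1000 bases in 1 direction under all 11 settings that change the counted bases. SREBF2, whose product mainly drives cholesterol genes (chromosome 22, 41833105 to 41907305), had 25915 control bases, all of them covered in the knockout list too, and 31347 knockout bases. Control peaks of 16432 and 8720 bases downstream of the start were joined in the knockout list as 1 peak of 27165. A further knockout peak of 2241 bases began 61183 bases downstream of the start, with no control counterpart and a fold of 3.54. At a fold of at least 4 the SREBF2 difference turned to -8720 bases, because the joined peak had a fold of 3.74 and the second control peak 4.89.

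SREBF2 was the only one of the 31 genes with a TCACNCCAC match in its promoter windows, and its sequence (chr22:41832855-41833104, plus strand) is shown for that, with the match as the first run of capitals.
SREBF2: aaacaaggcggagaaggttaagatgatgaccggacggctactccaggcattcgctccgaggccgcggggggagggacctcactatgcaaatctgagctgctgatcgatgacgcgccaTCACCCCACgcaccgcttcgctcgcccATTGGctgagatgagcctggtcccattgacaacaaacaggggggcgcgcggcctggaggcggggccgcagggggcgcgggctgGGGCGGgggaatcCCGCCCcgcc
The match lay 133 to 125 bases before the start, followed by a CCAAT match on the opposite strand 106 to 102 bases before it. Neither list had a peak over the window, the nearest being 987 (control) and 868 (knockout) bases from the start. In windows of 250 bases before to 50 after each listed start, on both strands and each motif counted on its own, TCACNCCAC was present at 1 of 31 genes (3.23%) and 1.52% of all genes. CCAAT was present at 23 of 31 (74.2%) and 42.1%, and GGGCGG at 30 of 31 (96.8%) and 64.3%.

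Each SREBF gene hosts a miRNA of the miR-33 family, known to repress cholesterol export genes, and the mature 5p forms are shown because they share a seed (capitals, bases 2 to 8).
hsa-miR-33a-5p: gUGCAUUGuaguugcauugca
hsa-miR-33b-5p: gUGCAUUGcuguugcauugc
Neither hairpin was covered by a peak. MIR33A in SREBF2 was 16496 bases from the nearest control peak and 4416 from the nearest knockout peak, the one of 2241 bases just described, and MIR33B in SREBF1 was 4347 and 4598 bases from the nearest.

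INSIG1, which retains SCAP in the endoplasmic reticulum and is itself an SREBP target (chromosome 7, 155297878 to 155310235), had 2 peaks in each list, covering 3529 control and 6584 knockout bases. All of its control bases were covered in the knockout list, and its downstream peak was 2269 bases wide in the control and 4918 in the knockout list. Its paralog INSIG2 was even, with 7964 and 8185 bases in 4 peaks each. STARD4, a sterol carrier gene, had 8232 and 10359 bases. A knockout peak of 8254 bases stood where control peaks of 1894 and 3772 lay downstream of its start. SCAP, the sterol sensor that escorts SREBPs (chromosome 3, 47413681 to 47477127), had 6 control peaks covering 5933 bases and 1 knockout peak covering 3196. Of the 6 control peaks 4 had no knockout counterpart, with −log10 q between 1.46 and 4.10. SCAP turned to the opposite direction once weaker peaks were left out (−log10 q under 5), with 1140 control and 3196 knockout bases.

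Most peaks at the 34 genes had a counterpart in the other list. The windows form 32 separate regions with 137 control and 113 knockout peaks, of median widths 1746 and 2498 bases. Of the control peaks, 26 of 137 peaks (19.0%, 95% exact Clopper-Pearson interval 12.8 to 26.6) had no overlap in the knockout list, against 28.2% of all control peaks. Of the knockout peaks it was 15 of 113 (13.3%, 7.62 to 20.9) against 21.3%. The intervals cover counting error over peaks only, and the knockout one nearly reaches the genome-wide share. Wide peaks meet a counterpart more easily, and the part of width in these shares was not tested. Among stronger peaks (−log10 q 5 or more), 0 of 52 control peaks and 0 of 67 knockout peaks lacked a counterpart in the full other list. A count of 0 allows shares of up to 5.77% and 4.48% by the limit of 3 counts, and up to 6.85% and 5.36% by the exact interval. Over all such peaks the shares were 3.23% and 2.77%, within those limits. The number of peaks was lower in the knockout list at 15 genes, equal at 13 and higher at 6. The same counts were not made over all genes, and the knockout list holds fewer peaks in all, 73600 against 82994. Summed over the 32 regions, 374697 control and 449431 knockout bases were covered, more in the knockout list, whereas the knockout list as a whole covered less.

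Other genes of the pathways did not share 1 direction. Their counts are to be read beside the 20.2% of all genes that were higher and the 30.0% that were lower. Of 12 further mevalonate and sterol genes 6 were higher and 2 lower. The largest excesses were at ACAT2, which makes acetoacetyl-CoA (6853 control and 10996 knockout bases), and ERG28 (4124 and 7342), and the deficits were at GGPS1, geranylgeranyl diphosphate synthase (8530 and 6426), and DHDDS of dolichol synthesis (7605 and 5733). Of 23 further fatty acid genes 6 were higher and 6 lower (26.1% each), near the shares of all genes. ACSL3, an acyl-CoA synthetase gene, had 35257 and 54719 bases and the ketoreductase gene HSD17B12 had 18792 and 26994, whereas MECR had 14095 and 7510 and HACD3 had 8956 and 4036. Of 20 further genes of SREBP and LXR regulation 3 were higher and 11 lower, with a median difference of -1980.5 bases. The sterol exporter gene ABCG1 had 13532 control and 4423 knockout bases and SOAT1, which esterifies cholesterol, had 17149 and 11016. NPC1 of lysosomal cholesterol exit (20258 and 25666) and MLXIPL (11272 and 14216) were the largest excesses.

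The counts kept an excess of higher genes under most other ways of counting, each beside its share of all genes. With the gene record alone 19 were higher (14.9%) and 7 lower (24.5%), with 10000 bases either side 18 (21.4%) and 10 (33.5%), and with 50000 bases either side 19 (26.2%) and 11 (46.0%). Within 10000 bases of the start 14 of 31 were higher (16.7%) and 6 lower (23.9%). With peaks of −log10 q 3 or more the counts were 22 (23.9%) and 6 (24.2%), with the 25000 strongest peaks of each list 21 (22.0%) and 7 (21.5%), and with the 50000 strongest 22 (23.2%) and 8 (25.1%). With the same merging distance they were 18 (18.4%) and 10 (32.0%), and with the knockout bases scaled to the control total 21 (23.1%) and 8 (27.4%). A threshold of 500 bases gave 22 (27.0%) and 10 (38.8%), one of 2000 bases 17 (11.0%) and 9 (18.7%), and a ratio of at least 1.5 on top of 1000 bases 12 (9.89%) and 3 (15.5%).

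Gene by gene the sign of the difference was kept at some genes and not at others. Of the 28 genes called higher or lower, 7 kept the sign under every one of the 11 settings that change windows, peaks or scaling (10 where no start was listed), namely MVD, LSS, DHCR7, SCD, ACLY, ACACA and SREBF1. Genes just past the 1000 base threshold were SC5D at 1590 and PMVK at 1639, and those just short of it were ACACB at 738, ELOVL1 at 708, FADS2 at 654 and HMGCS1 at -565.

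**Figure D5:**
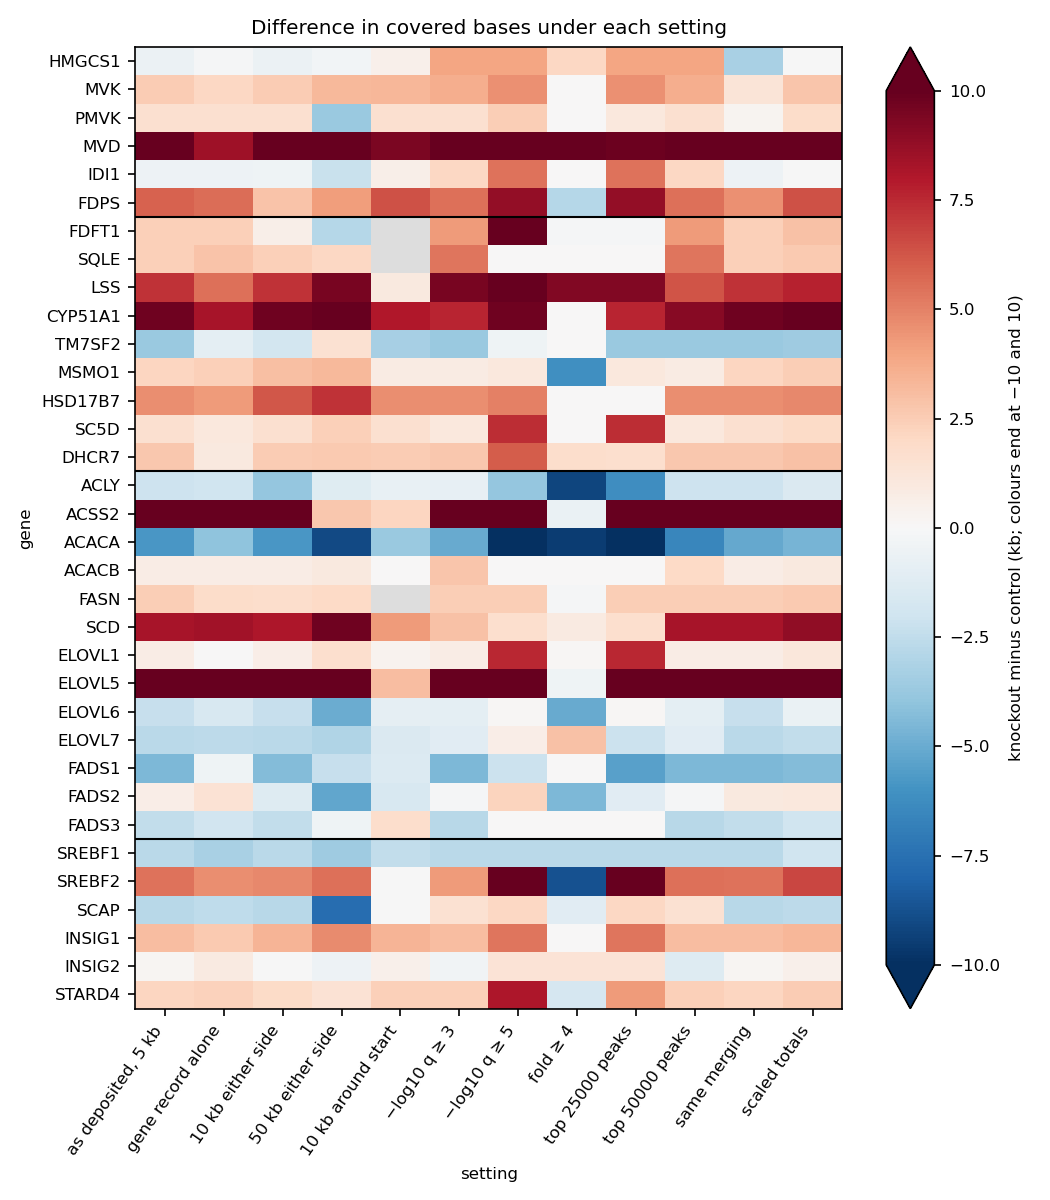
Difference in covered bases, knockout minus control (kb), for each gene (rows, in the order of the steps) under the deposited lists and 11 other settings (columns). Red is more in the knockout list, blue less, grey no start listed, and colours end at 10 kb in each direction. MVD, LSS and SCD stay red throughout and ACACA and SREBF1 stay blue, while FDPS, MSMO1 and SREBF2 turn blue at a fold of at least 4.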

How the data were processed

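H3K4me1 was profiled in 4 groups of 2 samples, an immunoprecipitate and an input group per genotype. Per the labels' protocols, chromatin was cut with micrococcal nuclease. The protocol text names H3K4me3, while the antibody label and titles say H3K4me1, which is used here. The submitters' processing notes name hg38, MACS2 2.2.6 and Bowtie2 2.3.5.1, but no source used here gives settings or says how replicates were pooled.

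Each deposited list holds, per the file headers, a peak's position, width and pileup (a signal of stacked fragments), its fold enrichment (a ratio over input) and its −log10 q value. A p value column was not used. These are the authors' values and only describe, rank or filter peaks within a list. The smallest gap between peaks was 1249 control and 1445 knockout bases, which can set how readily peaks join. An alternative joined gaps up to 1444 bases and kept peaks of at least 361 bases in both.

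Only chromosomes 1 to 22 and X entered. Gene records, starts and promoter sequences came from RefSeq (GRCh38.p14, the coordinates of hg38), and all 34 symbols matched. The outermost listed start was used. The tables used give no exons. The input background was estimated as (pileup + 1) / fold − 1 and its median taken over peaks within 1 Mb. The 34 genes, all lists, the steps and the rule to name all 34 genes were chosen with earlier results of these data known. The rule also named up to 2 other genes per list and direction, neighbours within a window, and 2 markers per list. Scripts ran in Python 3.11.15 with pandas 2.3.3 and scipy 1.17.1 and were checked on simulated lists. With 1 list per genotype no test was run. The downstream edge measure and the limit on background ratios were added after the data were seen.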

Additional observations from a re-analysis of the deposited data

How the results depend on the processing

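No paired analysis was possible because the deposited lists are 1 per genotype and carry no replicate numbers, and for the same reason no replicate could be left out. Over 14 alternatives the number of genes higher in the knockout list moved from 19 to 6 at a fold of at least 4 and to 12 when a ratio of at least 1.5 was also asked for. The number lower moved from 9 to 4 at a −log10 q of at least 5 and to 3 with the ratio. In the rest of these 14 alternatives 14 to 24 genes were higher and 6 to 11 lower. With background ratios of 0.8 to 1.2, added after the data were seen, 13 of 28 were higher. The percent of peaks with no overlap moved to 0 and 0 for peaks of −log10 q 5 or more against the full other list, and to 37.3% in the knockout list when both were restricted (35.1% over all knockout peaks), where the control value was 19.2% (24.9%). Numbers of genes with a farther downstream edge moved from 11 to 7 with background ratios of 0.8 to 1.2, to 1 at a −log10 q of at least 5 and to 0 at a fold of at least 4, where 1 gene was nearer under each of the last 2 settings, with fewer genes measured. Of the 6 genes under 1000 bases, HMGCS1 ranged from -3242 to 3961, IDI1 from -2192 to 5460, FADS2 from -5170 to 2201 and INSIG2 from -1319 to 1376, while ACACB and ELOVL1 took no opposite sign. For the 28 genes called higher or lower, differences of opposite sign, in bases, were as follows. With 50000 bases either side they were -3689 at PMVK, -2845 at FDFT1 and 1521 at TM7SF2. Around the start they were 1775 at FADS3 and -35 at SREBF2. At a −log10 q of at least 3 and among the 50000 strongest peaks the SCAP value was 1505. At a −log10 q of at least 5 they were 143 at ELOVL6, 661 at ELOVL7, 49 at FADS3 and 2056 at SCAP. Among the 25000 strongest peaks they were -116 at FDFT1, 143 at ELOVL6, 49 at FADS3 and 2056 at SCAP. At a fold of at least 4 they were -2846 at FDPS, -116 at FDFT1, -6156 at MSMO1, -689 at ACSS2, -139 at FASN, -394 at ELOVL5, 2956 at ELOVL7, 49 at FADS3, -8720 at SREBF2 and -1709 at STARD4. The cause of these changes was not tested.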
